A study of Danio rerio with 4 samples.

Results

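The genes described here are 10 members of the early response to a stimulus in zebrafish: the zinc finger transcription factors egr1, egr2a, egr2b and egr3, the nuclear proteins ier2a, ier2b and ier5, the orphan nuclear receptors nr4a1 and nr4a3, and the phosphatase dusp5. They were chosen by symbol, with earlier results of these data known. Each symbol matched 1 of the 35066 Ensembl genes among the 49610 identifiers measured. The table of gene names writes ier5, egr3, nr4a1, nr4a3 and dusp5 in capitals, and it holds a gene called EGR2 (ENSDARG00000042826) without a copy letter beside egr2a (ENSDARG00000044098); EGR2 was therefore taken as egr2b. RNA had been sequenced from the testes of wild-type AB zebrafish, labelled male and 5 months old, although the design text calls them female. The groups were an unexposed control, fish given dibutyl phthalate (DBP), fish given its isomer diisobutyl phthalate (DiBP), and fish given DBP and DiBP together (DBP+DiBP); the stated exposure was 30 days, and the labels name no dose and no vehicle. DBP and DiBP are plasticizers with the same atoms, linear butyl chains in DBP and branched ones in DiBP. Every group was 1 library, and the labels do not say how many fish it holds. No difference below has a replicate check, and no p-value is given.

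Genes of this kind are induced within minutes by growth factors, hormones, stress or tissue injury, without new protein synthesis. The signal commonly runs through the ERK kinases to the transcription factors SRF, ELK and CREB that sit on their promoters. The Egr proteins bind GC-rich DNA and are held back by the NAB co-repressors, the Nr4a receptors act without a known physiological ligand, and Dusp5 is a nuclear phosphatase that removes the activating phosphates from ERK and so closes the loop. In mammalian Leydig cells, Nr4a1 is induced by luteinizing hormone and acts on promoters of steroidogenic genes. Their transcripts decay fast, so in general their level follows recent signals.

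Values are taken as FPKM (fragments normalised to the length of the transcript and to library depth), a unit read from the values since no header names it. They allow levels to be compared between genes. Ratios are differences of log2(FPKM + 1), a scale that understates the folds of weak genes, and "higher" or "lower" means at least 2-fold on it. Of the 10 members, 8 averaged at least 1 FPKM over the 4 libraries and are among the 23405 features compared. These 8 also averaged at least 1 FPKM when any 1 library was left out. The members egr3 and nr4a3 averaged 0.758 and 0.0161 FPKM and are described by their levels.

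The libraries were close in summed FPKM and unlike in the transcripts of cell type markers. FPKM summed to between 547485 and 605447, which does not measure library size, since FPKM is already scaled to depth. Read numbers are not known. The most frequent ratio of values under 0.3 FPKM put the depth of the exposed libraries at 1.051 to 1.103 times that of control. That ratio was sought only among nearly equal values, so a large difference in depth could not have been returned. Germ cell genes (9 measured) summed to 1783 FPKM in control and 2186 in DBP, with 1883 in DiBP and 984 in DBP+DiBP, with none at 0, and the Sertoli hormone amh and the Leydig hormone insl3 were present in every library. Leydig and steroidogenic genes (13, none at 0) summed to 2322 FPKM in control and 2792 in DBP, but to 1183 in DiBP and 440 in DBP+DiBP. Most of each sum was insl3, at 2072, 2455, 1044 and 293 FPKM in the same order. Over the 8 compared genes of the list, the median log2 ratio of DBP+DiBP to DiBP was 0.10. Of these, 2 were lower and 0 higher, where 8.19% of all compared features were lower and 10.5% higher. Oocyte genes summed to between 9.78 and 18.2 FPKM, with the egg coat gene zp3b listed at 0 in DBP and DiBP. In DBP+DiBP, gut epithelium markers (12 measured, none at 0) summed to 3319 FPKM, against 14.9 to 29.5 in the other libraries, with 7 of 8 compared markers higher than in control. FABP6 alone gave 2323 FPKM of that sum. Leukocyte markers (11, none at 0) summed to 628 FPKM there against 199.9 to 263, with 8 of 10 higher, and markers of stroma, vessels and smooth muscle (14, with a CNN1 copy at 0 in control) to 1559 against 202 to 560.5, with 6 of 9 higher. Beside these counts, 9.57% of all compared features were higher in DBP+DiBP than in control and 6.42% lower. Heat shock genes (10, none at 0) summed to 1526 FPKM in control and 753 in DBP, with 6044 in DiBP and 1319 in DBP+DiBP. In the DiBP sum, hsp70l and hsp70.3 stood at 2342 and 1511 FPKM. In whole testis, fewer cells of a type and less RNA per cell cannot be told apart.

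**Figure D1:**
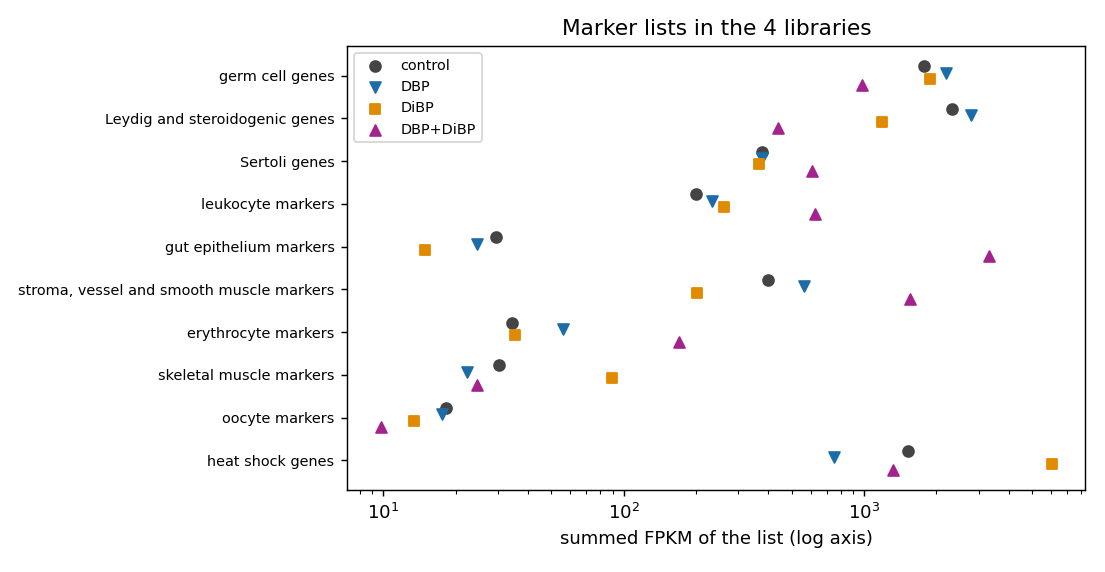
Summed FPKM (log axis) of each marker list in the 4 libraries, 1 point per library. DBP+DiBP stands far to the right for gut epithelium markers (3319 FPKM against 29.5 in control) and to the left for germ cell genes, and DiBP stands to the right for heat shock genes (6044 FPKM).

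All 8 compared members had their lowest value in the DBP library. Over all compared features, DBP was the lowest of the 4 libraries in 17.8% and the highest in 28.7%; it was the highest in 0 of the 8 members, as was DiBP, the highest in 22.4% of features. The highest value was in DBP+DiBP for egr1, ier2a, ier2b, ier5 and nr4a1, and in control for egr2a, egr2b and dusp5; DBP+DiBP was the highest library in 24.9% of features and control in 24.0%. The position of DBP was the same with library totals made equal, after scaling by median ratios and after scaling on germ cell genes.

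**Figure D2:**
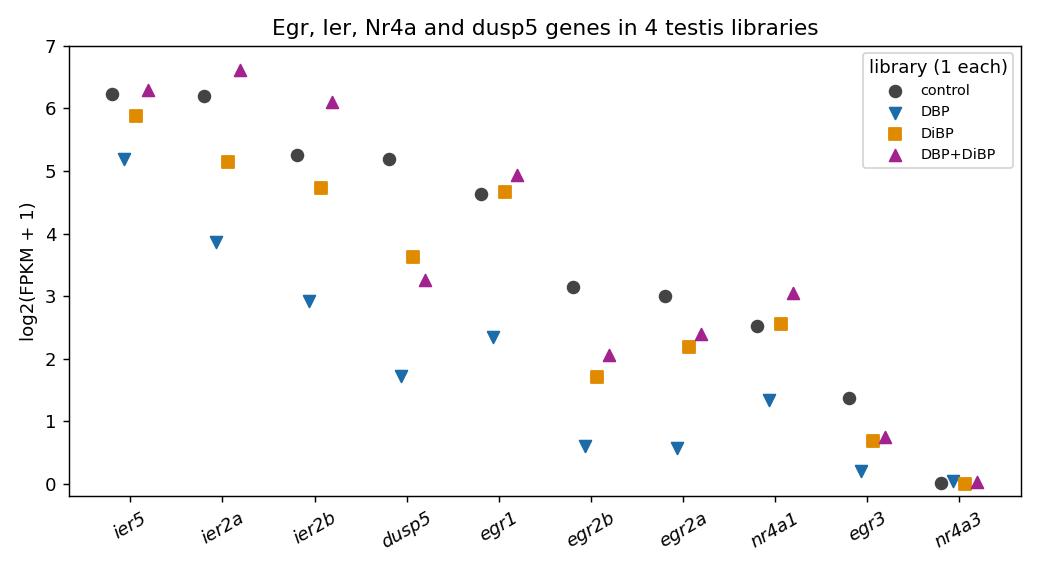
Level of each member as log2(FPKM + 1) in the 4 libraries, 1 point per library, ordered by the control value. The DBP point is the lowest for every gene but nr4a3, whose values all lie below 0.1 FPKM, and the DBP+DiBP point lies above control for the Ier genes, egr1 and nr4a1 but below it for dusp5 and the other Egr genes.

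The Ier genes were the most abundant members. Ier2 and Ier5 are short nuclear proteins of one family, linked in mammalian cells to phosphatase PP2A and to the heat shock factor HSF1. The gene ier2a (ENSDARG00000099195) stood at 72.5 FPKM in control and 13.6 in DBP, with 34.3 in DiBP and 96.6 in DBP+DiBP. Its copy ier2b (ENSDARG00000086881) stood at 37.1, 6.55, 25.4 and 67.5 FPKM in the same order. Both copies thus ran from DBP at the bottom through DiBP and control to DBP+DiBP, and their lowest and highest libraries lay 7.10-fold and 10.3-fold apart. The gene ier5 (ENSDARG00000009881) varied least, with 73.9 FPKM in control and 35.5 in DBP, with 58.1 in DiBP and 77.6 in DBP+DiBP, a spread of 2.18-fold. Its control level exceeded that of 95.6% of compared features, close to the 95.5% for ier2a.

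Among the Egr genes, egr1 (ENSDARG00000037421), the most broadly induced member of the family, was the most abundant. It stood at 23.8 FPKM in control and 4.09 in DBP, with 24.4 in DiBP and 29.6 in DBP+DiBP. DiBP and DBP+DiBP were within 1.24-fold of control, and DBP was 5.82-fold below it. The gene egr2a stood at 7.02 FPKM in control and 0.493 in DBP, with 3.54 in DiBP and 4.28 in DBP+DiBP. For egr2b, which in zebrafish patterns the hindbrain and is needed for myelin formation, the values were 7.87, 0.523, 2.28 and 3.17 FPKM. The weak egr3 (ENSDARG00000089156) followed the same order with 1.60, 0.155, 0.610 and 0.673 FPKM. In these 3 genes control was the highest library, DBP the lowest, and both libraries with DiBP lay between them.

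The make-up of the 4 Egr members differed between control and the exposed libraries. Their relative egr4, at 6.97 FPKM in control and at most 1.38 in the exposed libraries, is left out of the sums and shares that follow. The 4 genes together gave 40.3 FPKM in control and 5.26 in DBP, with 30.8 in DiBP and 37.7 in DBP+DiBP. The share of egr1 in that sum was 59.1% in control and, among exposed libraries, 77.7% (DBP), 79.1% (DiBP) and 78.5% (DBP+DiBP). So the exposed libraries, whose sums over the 4 genes ran from 5.26 to 37.7 FPKM, lay close together in this share. For the Ier2 pair, the share of ier2a paired the libraries differently: it was 66.1% in control and 67.5% in DBP, but 57.4% in DiBP and 58.9% in DBP+DiBP. These shares have no replicate and no counting error, since fragment counts are not given.

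Of the Nr4a receptors, nr4a1 was expressed at a low level and nr4a3 was near 0. The gene nr4a1 (ENSDARG00000000796) stood at 4.78 FPKM in control and 1.54 in DBP, with 4.87 in DiBP and 7.31 in DBP+DiBP. Its order of libraries was that of egr1, with DBP alone well below control. Values of nr4a3 (ENSDARG00000055854) were 0.00994 FPKM in control, 0.0312 in DBP and 0.0233 in DBP+DiBP, and it was listed at 0 in DiBP; no order is read from these. The phosphatase gene dusp5 (ENSDARG00000019307) stood at 35.6 FPKM in control and 2.30 in DBP, with 11.4 in DiBP and 8.57 in DBP+DiBP. It had the widest spread of the 8 compared members, 15.4-fold, and was the only one of them with DBP+DiBP below DiBP.

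The first comparison, DBP against control, concerns exposure to the linear isomer. All 8 compared members were lower in DBP, against a background of 4.5% of all compared features lower (and 6.68% higher). The largest differences were those of dusp5, with a log2 ratio of -3.47, egr2b with -2.54 and egr2a with -2.43. Next came ier2b with -2.34, ier2a with -2.33 and egr1 with -2.29. The smallest were nr4a1 with -1.19 and ier5 with -1.04, just past 2-fold. The median over the 8 genes was -2.33, beside 0.05 over all features, of which the middle 90% between percentiles 5 and 95 ran from -0.94 to 1.13. Without the filter on low values 9 of the 10 members were lower, egr3 included at -1.17, beside 3.80% of 42683 features.

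Folds in FPKM itself exceed those on the log2(FPKM + 1) scale, most so for weak genes. DBP lay 15.4-fold below control for dusp5, 15.0-fold for egr2b, 14.2-fold for egr2a and 10.3-fold for egr3. The corresponding figures for ier2a, ier2b and egr1 were 5.33-fold, 5.67-fold and 5.82-fold, and those for nr4a1 and ier5 were 3.10-fold and 2.08-fold. In DBP, egr2b, egr2a and egr3 stood at 0.523, 0.493 and 0.155 FPKM, above only 3.59%, 3.39% and 1.55% of compared features. Their folds therefore rest on values near the floor. By rank among the 23405 log2 ratios, dusp5 was number 47 from the lowest, egr2b number 135 and egr1 number 182, while ier5 was number 987. With library totals made equal, ier5 moved to -0.97 and so under 2-fold.

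Of the 10 heat shock genes compared, 5 were lower in DBP than in control and 0 higher. The other 5 lay between -0.56 for dnajb1a and 0.30 for an HSPA8 copy (ENSDARG00000037403). Among the largest differences, the inducible chaperone genes hsp70l and hsp70.3 stood at 13.0 and 4.61 FPKM in DBP and at 161 and 165 in control. Their part in the result was not tested. Of the 9 germ cell genes 0 passed 2-fold in DBP, and their median log2 ratio was 0.19. Leukocyte markers had a median of 0.15, with 1 of 10 higher and 0 lower.

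**Figure D3:**
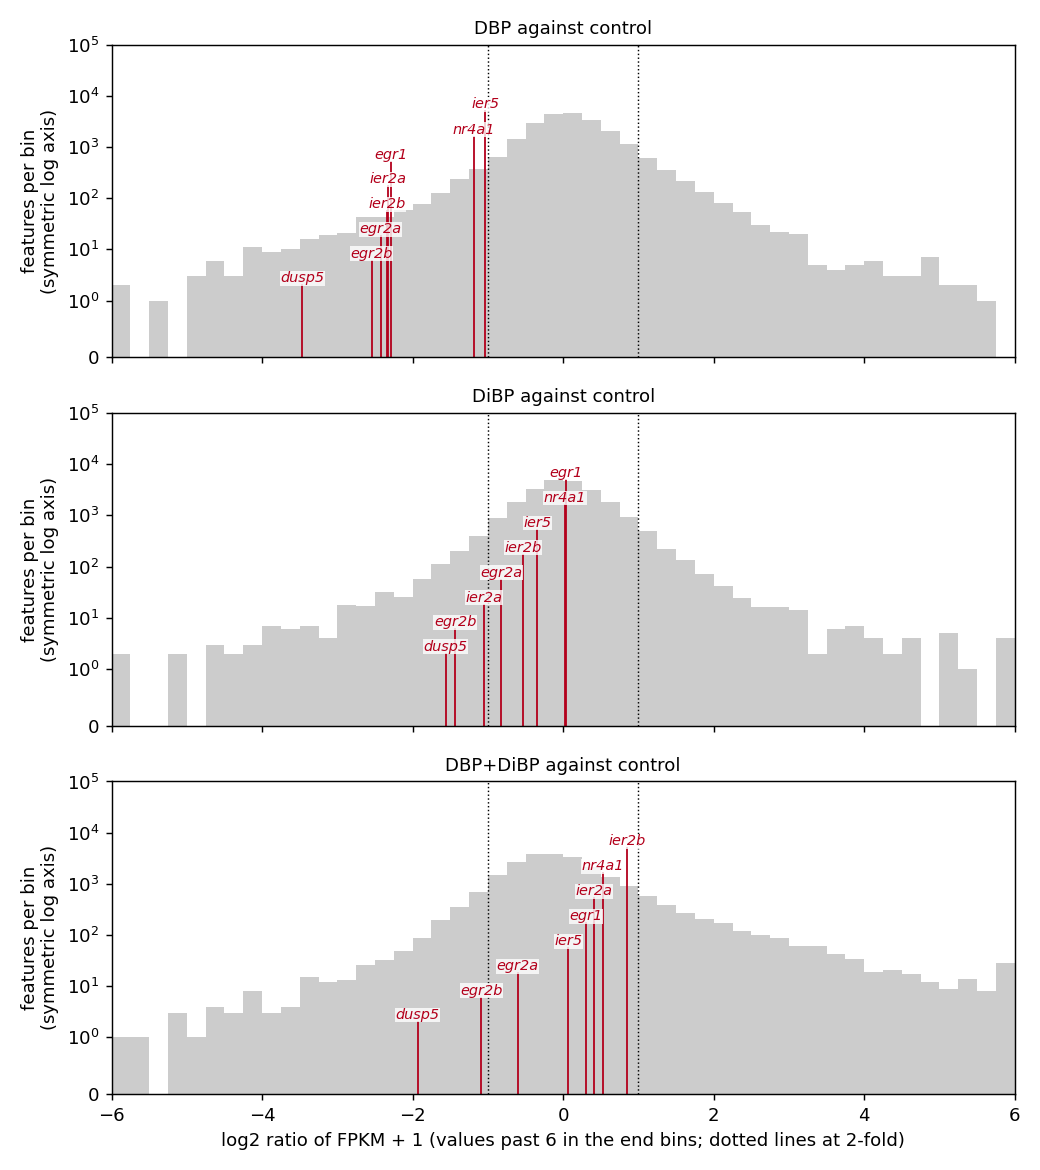
Log2 ratio of each exposed library to control for the 8 compared members (red lines with names; the height of a line has no meaning) over the number of all 23405 compared features per bin of 0.25 (grey, symmetric log axis). In DBP all 8 members lie left of the 2-fold line, in DiBP 3 and in DBP+DiBP 2, the latter pair being egr2b and dusp5.

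The second, DiBP against control, concerns the branched isomer. In DiBP 3 of the 8 members were lower and 0 higher: dusp5 with a log2 ratio of -1.56, egr2b with -1.44 and ier2a with -1.06. The background was 3.86% of features lower and 4.6% higher, 8.46% in all, or 3.02% and 6.06% with library totals made equal. The ratio of egr2a was -0.82, that of ier2b -0.53 and that of ier5 -0.34. For egr1 and nr4a1 it was 0.03 and 0.02, so these 2 genes stood at their control level in DiBP, and egr3 was at -0.69. The median over the 8 compared genes was -0.67, beside -0.01 over all features. The call for ier2a lay close to 2-fold and became -0.92 with library totals made equal and -0.86 after scaling on germ cell genes.

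Other lists also differed between DiBP and control. Of 10 heat shock genes 5 were higher than in control and 1, HSPB1, was lower with -1.07, and hsp70l stood at 2342 FPKM. Skeletal muscle markers were higher in 5 of 9 and summed to 89.2 FPKM against 30.4 in control, with none listed at 0, and mitochondrially encoded genes were lower in 7 of 10. What part these had in the member values was not tested.

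DBP and DiBP were then set side by side, with the reservation that the labels name no dose, so that matching doses cannot be assumed. The DiBP library was higher than the DBP library in 7 of the 8 members and lower in 0, where 2.65% of all features were higher and 4.32% lower. The difference of log2 values was 2.32 for egr1, 1.91 for dusp5, 1.81 for ier2b, 1.60 for egr2a, 1.27 for ier2a, 1.21 for nr4a1 and 1.11 for egr2b. For ier5 it was 0.69 and so under 2-fold. The median difference was 1.44 beside -0.04 over all features. With 1 library of each isomer, this difference cannot be told apart from any other difference between the libraries. Against DBP, the DiBP library was also higher for 7 of 10 heat shock genes (0 lower, median 1.98) and for 6 of 9 skeletal muscle markers (0 lower, median 1.72). Their part in the member values was not tested. Leydig and steroidogenic genes differed in the opposite direction, with 5 of 8 lower in DiBP than in DBP, among them STAR, the cholesterol carrier, named after its values were seen, at 64.6 against 159 FPKM.

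The comparison of DBP+DiBP with control concerns joint exposure. Here the members split. Lower were 2 of 8, dusp5 with a log2 ratio of -1.93 and egr2b with -1.09, and 0 were higher, against 6.42% of features lower and 9.57% higher, 16.0% in all. The ratio of egr2a was -0.60 and that of egr3 was -0.63. On the other side of 0 stood ier2b with 0.85, nr4a1 with 0.52, ier2a with 0.41, egr1 with 0.30 and ier5 with 0.07, all under 2-fold. The median of the 8 was 0.18, beside -0.11 over all features and a middle 90% of -1.10 to 1.59.

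This library held the gut, leukocyte and stromal transcripts given above, and lower germ cell transcript levels, with 5 of 9 germ cell genes lower than in control and 0 higher. Their part in the member values was not tested. When every library was scaled so that the median germ cell gene matched control, a setting chosen after the data were seen, values in DBP+DiBP shifted up by 1.07 on the log2 scale. Then 5 of the 8 members were higher than control (ier2a, ier2b, nr4a1, egr1 and ier5) and 0 lower, with dusp5 at -0.94 and egr2b at -0.21. Under the same setting 35.9% of all features were higher and 1.71% lower, so these calls carry the shift itself.

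DBP+DiBP was also set against each single exposure. It was higher than DBP in 8 of 8 members, where 10.2% of features were higher and 11.3% lower (11.9% and 8.20% after scaling by median ratios). The log2 differences ran from 1.11 for ier5 to 3.18 for ier2b, with 2.74 for ier2a, 2.59 for egr1, 1.82 for egr2a, 1.71 for nr4a1, 1.53 for dusp5 and 1.45 for egr2b. Against DiBP it was higher in 2 of 8, ier2a with 1.47 and ier2b with 1.37, where 10.5% of features were higher and 8.19% lower (9.28% and 11.3% with library totals made equal). These 2 gaps exceed the gap of ier5 to DBP. The other 6 lay between -0.37 for dusp5 and 0.50 for nr4a1.

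The sum of the log2 ratios of the single exposures lay below the joint value for every compared member. For ier2a the single ratios summed to -3.39 and the joint ratio was 0.41, a departure of 3.80. The departure was 3.71 for ier2b, 3.10 for dusp5, 2.89 for egr2b, 2.64 for egr2a, 2.55 for egr1, 1.69 for nr4a1 and 1.45 for ier5. All 8 exceeded 1, as did 15.1% of all compared features, whose median was -0.16. For egr2b and egr2a the single ratios summed to -3.98 and -3.25, more than their whole control level on this scale. A positive departure was thus fixed in advance for these genes, and dusp5, with a sum of -5.03, came close to that. The low DBP value of each member also enters its sum, so the departures are not separate from the DBP ratios. The 3 ratios share the control library, so these values are a description. As the labels name no dose, it is not known whether the joint exposure held each compound at its single-exposure dose. DBP+DiBP also held the gut, leukocyte and stromal transcripts given above, and lower germ cell transcript levels. Their part in the departures was not tested.

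Other genes of the same response were taken from lists by function. These lists were fixed with earlier results of these data known, so their counts are a description and no independent support. Of the 10 AP-1 subunits compared, the partners that form the FOS and JUN dimers, 9 were lower in DBP than in control and 0 higher, with a median of -2.54. The remaining subunit, fosl1b, went the other way, with a log2 ratio of 0.95, just under 2-fold. It stood at 36.4 FPKM in control and 71.0 in DBP, its highest library, with 63.0 in DiBP and 19.4 in DBP+DiBP. In DBP+DiBP the AP-1 subunits split, with 2 higher and 5 lower. Beside these counts and those of the lists that follow stand the shares of all compared features against control. They were 4.5% lower and 6.68% higher in DBP, 3.86% and 4.6% in DiBP, and 6.42% and 9.57% in DBP+DiBP. FOSB stood at 36.7 FPKM in control and 2.62 in DBP, with 11.2 in DiBP and 10.2 in DBP+DiBP, and FOSL1 at 20.7, 1.44, 6.59 and 4.31, both in the order of control, DiBP, DBP+DiBP and DBP from the top. That is also the order of dusp5. JUN stood at 77.9, 11.3, 93.0 and 209 FPKM in the same libraries, and the JUNB copy ENSDARG00000104773 at 142, 21.4, 191 and 321. Both ran in the order of egr1 and nr4a1.

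Among the other MAP kinase phosphatases, 2 of 7 were lower in DBP and 0 higher. DUSP2, like dusp5 an inducible nuclear enzyme, stood at 28.8 FPKM in control and 3.05 in DBP, with 9.65 in DiBP and 7.87 in DBP+DiBP. Its order of libraries was that of dusp5. DUSP1 stood at 25.0, 10.8, 29.3 and 71.4 FPKM, with DBP+DiBP at the top. The cytoplasmic ERK phosphatase DUSP6 stood at 6.31, 4.51, 4.57 and 22.6 FPKM, and DUSP16 at 7.08, 4.81, 6.48 and 7.13. In DBP+DiBP 2 of the 7 were higher than in control, DUSP1 and DUSP6, and 2 lower, DUSP2 and dusp14.

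The list of other immediate early genes had 19 of 37 lower in DBP and 0 higher, with a median of -1.08. CEBPB, a bZIP factor of acute responses, stood at 136 FPKM in control and 14.1 in DBP, with 131 in DiBP and 286 in DBP+DiBP. The prostaglandin synthase gene PTGS2 (ENSDARG00000004539) stood at 33.3, 0.694, 11.5 and 3.29 FPKM. CEBPD stood at 32.9, 14.5, 48.9 and 135 FPKM, and the growth arrest gene GADD45B (ENSDARG00000027744) at 51.1, 9.49, 49.3 and 102. DBP was the lowest library in all 4, which were picked for their wide range over these same libraries. In the whole list DBP was the lowest library in 27 of the 37 genes, beside 17.8% of all compared features. In DiBP 4 of the 37 were lower and 1 higher, and in DBP+DiBP 3 were lower and 10 higher. That 1 higher gene, picked after its values were seen, was the kinase gene SIK1, at 0.379 FPKM in control and 0.340 in DBP, with 6.85 in DiBP and 11.6 in DBP+DiBP.

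Taking these lists with the nearest relatives of the members, 31 of 57 compared genes were lower in DBP than in control and 0 higher, and DBP was the lowest library in 43 of the 57. Over all compared features 4.5% were lower in DBP and 6.68% higher, and DBP was the lowest library in 17.8%. Among the relatives, egr4 stood at 6.97 FPKM in control and 0.234 in DBP, with 1.38 in DiBP and 0.612 in DBP+DiBP. It was lower than control in all 3 exposed libraries. IER5L varied little, with 6.04, 4.35, 4.28 and 5.08 FPKM. The 2 NR4A2 copies were weak, with ENSDARG00000044532 at 1.20, 1.08, 1.59 and 2.75 FPKM and ENSDARG00000017007 under 0.4 FPKM in every library.

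**Figure D4:**
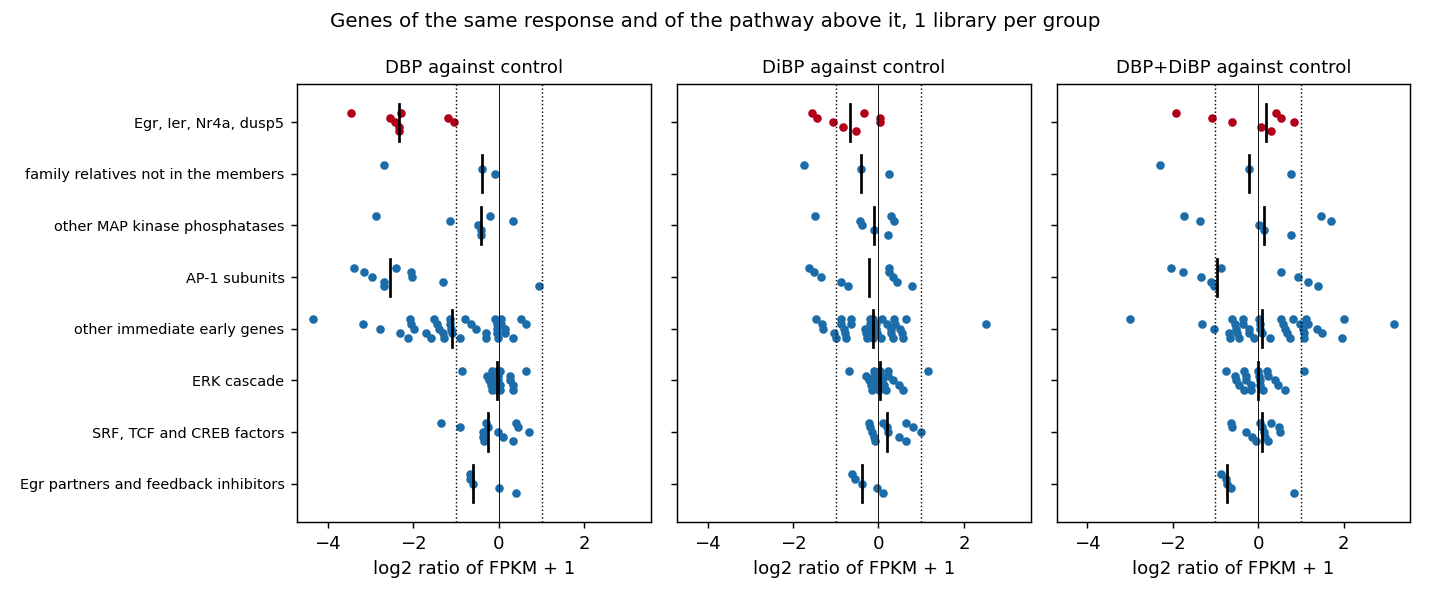
Log2 ratio of each exposed library to control for every compared gene of the lists (points) with the list median (black bar), for the described genes (red) and the lists of their relatives and of the pathway above them (blue); dotted lines mark 2-fold. All 8 members and 9 of 10 AP-1 subunits lie left of the line in DBP, with medians of -2.33 and -2.54, while the ERK cascade centres on 0 in all 3 panels.

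Few genes for the kinases and factors above these genes passed 2-fold. Of 21 compared genes of the ERK cascade 0 were lower in DBP and 0 higher, with a median of -0.03. In DiBP and in DBP+DiBP 1 of 21 was higher, SOS1, an exchange factor that loads RAS with GTP, at 5.42 FPKM in control and 8.96 in DBP, with 13.3 in DiBP and 12.4 in DBP+DiBP. The RAS gene HRAS (ENSDARG00000098497) stood at 15.5, 8.02, 9.25 and 10.3 FPKM, below control in every exposed library but under 2-fold, with -0.87 in DBP. The adaptor gene grb2b stood at 7.15, 8.76, 7.67 and 10.3 FPKM, and the exchange factor gene SOS2 at 9.001, 11.04, 13.0 and 10.6. Of 13 SRF, TCF and CREB factors 1 was lower in DBP, the CREB family gene crema, at 0.466 FPKM against 2.76 in control. The SRF copy ENSDARG00000102867 stood at 5.38 FPKM in control and 2.41 in DBP, with 9.04 in DiBP and 6.91 in DBP+DiBP, under 2-fold from control throughout. The SRF partner ELK4 stood at 4.87, 8.62, 10.7 and 5.23 FPKM and lay just under 2-fold above control in DiBP. The CREB genes creb1a and cremb stood at 14.9, 11.4, 12.8 and 9.29 FPKM and at 178, 237, 248 and 115 FPKM. Of 5 compared genes for Egr co-repressors and Sprouty-type ERK inhibitors 0 passed 2-fold in any exposed library against control; the ERK inhibitor SPRED1 stood at 15.6, 9.47, 15.2 and 9.63 FPKM. These are levels of mRNA and say nothing of kinase activity.

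The features most like the members over the 4 libraries were found by the Euclidean distance between gene-centred log2 values and the mean profile of the 8 compared members. Among 7438 eligible features the nearest was mcl1a, a survival gene of the Bcl2 family, at a distance of 0.135. It stood at 363 FPKM in control and 75.8 in DBP, with 199 in DiBP and 286 in DBP+DiBP. Next were the endoplasmic reticulum chaperone HSP90B1 (distance 0.349), the ETS factor ets2 (0.384) and GADD45B (ENSDARG00000013576, 0.396). They were followed by f3b for tissue factor (0.471), the chemokine ccl35.1 (0.478), CSRNP1 (0.478) and the apolipoprotein apoeb (0.487). The members themselves lay 0.311 (egr2a) to 1.28 (dusp5) from their own mean, and 312 eligible features lay no farther than dusp5. As the distance rests on only 4 libraries, 1 per group, this likeness is given as a description.

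**Figure D5:**
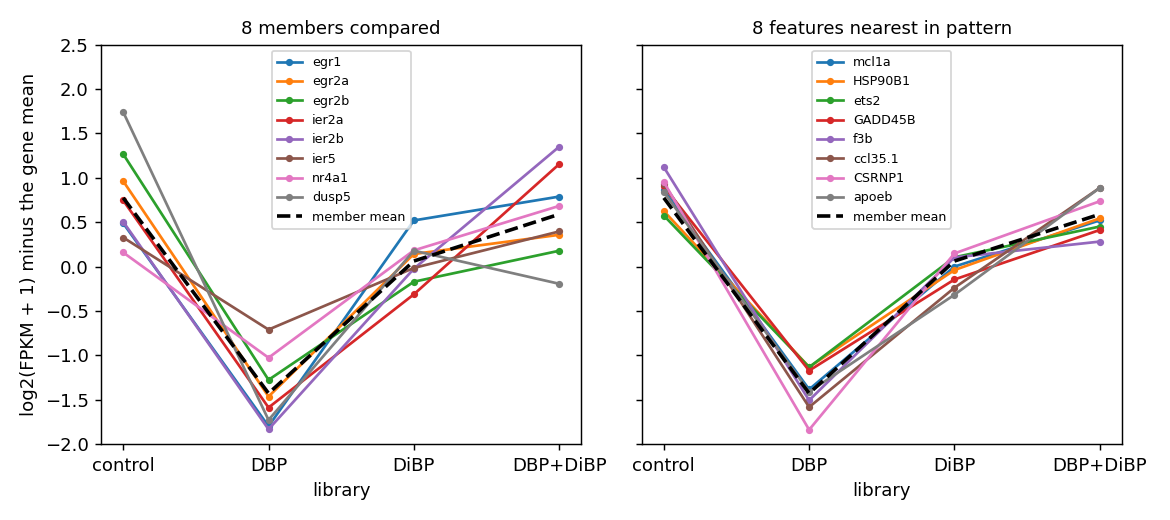
Gene-centred log2(FPKM + 1) in the 4 libraries for the 8 compared members (left) and for the 8 features nearest to their mean (right), with that mean dashed; lines join values of 1 gene and imply no order of the libraries. Every member profile has its minimum in DBP. The features on the right share that minimum because they were picked for nearness to the mean. The member dusp5, the highest in control at 1.74, is the lowest in DBP+DiBP at -0.19, where ier2b is the highest at 1.35.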

How the data were processed

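The deposited values, 1 per identifier and library, were taken as FPKM made by the authors. No header names the unit, and the step that made them is not given in the sources used here. The submitters' processing notes name HTSeq 0.6.1, HISAT2 and the build GRCz10, without their roles. No genome of that build was used here, so no coordinates or sequences are given. Per the labels, libraries came from 3 μg of RNA and were read as paired ends; strand setting is not given.

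Identifiers with identical values were merged, and features averaging at least 1 FPKM were compared as log2(FPKM + 1) with a 2-fold rule, in Python 3.11.15 with pandas 2.3.3. The counting code was run on a copy of control values of at least 5 FPKM, with known changes put in and no noise. It returned those changes, which checks the code only and says nothing of the calls. A design of 1 library per group allows no test and no SD. Depth is unknown in reads, so no counting interval is given. The gene name table matched 26996 of 35066 Ensembl identifiers. List symbols were matched by name or without their copy letter. Named genes of a pathway list are up to 4 averaging 5 FPKM or more with the widest range over the libraries; other names are said to be chosen after their values were seen or complete a count of 5 or fewer. Members and lists were chosen with earlier results of these data known. Alternatives changed the pseudocount, scaling, filter, merging or feature type (8 settings), and 2 more were chosen after seeing the data.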

Additional observations from a re-analysis of the deposited data

How the results depend on the processing

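No paired analysis was possible because each group holds 1 library, and no library could be left out of a group. The median log2 ratio of the members in DBP against control lay between -2.50 and -1.44 over the 10 alternatives; with a pseudocount of 5, 6 of 8 members were lower there, ier5 at -0.96 and nr4a1 at -0.58 falling short of 2-fold, while the share of all features lower went to 1.35%. With a pseudocount of 5, 4 members were higher in DiBP than in DBP (median 0.86; 0.782% of all features) and 4 in DBP+DiBP than in DBP (median 0.97; 4.83%), and the members lower than control numbered 1 in DiBP (0.931%) and 1 in DBP+DiBP (1.68%). That pseudocount shrinks the ratios of weak genes. With a mean of at least 5 FPKM, 5 members remained to be compared, of which 5 were lower in DBP than in control (4.004% of all features), 1 was lower in DBP+DiBP than in control (6.56%), 4 were higher in DiBP than in DBP (2.38%) and 5 were higher in DBP+DiBP than in DBP (9.86%). After scaling on germ cell genes, added after the data were seen, DBP+DiBP had 5 members higher and 0 lower than control (median 1.24) and 6 higher than DiBP (median 1.20). The same scaling moved the split of all features to 4.79% higher and 5.68% lower for DBP against control and to 7.01% and 2.82% for DiBP against control. For DiBP against DBP it gave 5.22% and 2.25%, for DBP+DiBP against DBP 41.6% and 1.88%, and for DBP+DiBP against DiBP 28.3% and 2.30%. No single member's ratio past 2-fold changed sign. Under germ cell scaling other members were past 2-fold in DBP+DiBP against control. The lower genes dusp5 (-0.94) and egr2b (-0.21) fell short of 2-fold, and ier2a, ier2b, nr4a1, egr1 and ier5 passed it upward. Keeping identifiers apart, Ensembl features only, no filter, median ratios, and the filter taken without DBP+DiBP (also added after the data were seen) changed no call of a member and no count of members by over 1.5 times. Shares of all features did move: with Ensembl features only, 4.36% were higher in DBP than in control and 2.41% lower in DiBP than in DBP, and with no filter 5.23% were lower in DBP+DiBP than in DiBP. A pseudocount of 0.1 raised the shares against control. It gave 7.68% lower and 11.7% higher in DBP, 8.40% and 8.58% in DiBP, and 12.2% and 13.5% in DBP+DiBP. Without replicates or fragment counts, neither biological spread nor counting error limits can be given.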
